A study of Mus musculus with 10 samples.

Results

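The zinc-dependent histone deacetylases (HDACs) were examined in leukemic mouse spleens, as the 10 genes Hdac1, Hdac2, Hdac3, Hdac8, Hdac4, Hdac5, Hdac7, Hdac6, Hdac10 and Hdac11 among the 20813 genes of the deposited expression table. They were chosen by gene symbol, as named members of classes I, II and IV. All 10 were in the table, and all 10 passed a filter that required a mean normalized value of at least 10 over the samples.

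The samples were spleens of sub-lethally irradiated mice that had received T-cell acute lymphoblastic leukemia (T-ALL, a cancer of immature T cells) by intravenous injection. The leukemias of both groups carried a conditional Sirt1 knockout allele, and the strain of all samples is labelled C57BL/6. The 5 samples labelled Sirt1 deleted carry the title abbreviation TMX, and the 5 controls carry VEH. The protocol names tamoxifen in corn oil, 3 mg per mouse by intraperitoneal injection, and corn oil alone as the control treatment. Spleen cells had been passed through a filter and treated to lyse red blood cells. The title abbreviation and the genotype label divide the samples alike, so an effect of the drug and one of the genotype cannot be told apart. The Cre driver, the number of independent leukemias, the time of sampling and the age of the mice are not given in the sources used here. Sample names give the group and the title number. Nothing states that the samples of a group came from separate leukemias, so p-values measure the spread between these samples.

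HDACs remove acetyl groups from lysines of histones and other proteins, and use a zinc ion in the catalytic site, whereas the sirtuins, to which SIRT1 belongs, use NAD. Class I enzymes are mainly nuclear and work inside corepressor complexes such as NuRD, SIN3, CoREST and NCoR. Class IIa enzymes have little deacetylase activity of their own. They bind MEF2 transcription factors, and phosphorylation by kinases of the CaMK, PKD, SIK and MARK families moves them out of the nucleus. Class IIb enzymes act largely in the cytoplasm, and HDAC11 is the sole member of class IV. In developing T cells HDAC1 and HDAC2 have overlapping functions, and HDAC7 represses Nr4a1 and other genes of negative selection.

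The deposited values summed to between 33660245 and 34471964 per sample, and differences were tested with limma on log2(value + 1) over 15276 genes. Sirt1 was at 1810 ± 62.5 in controls and at 1873 ± 146 under the deleted label (SD over 5 samples each; log2 difference 0.05, limma adjusted p = 0.568). The labels do not name the deleted part of the gene, and a gene-level value cannot show the loss of an exon. Its level was not lower where the label says deleted, and "labelled Sirt1-deleted" stands for that label in what follows. On the first principal component of all tested genes, which held 39.2% of the variance, labelled Sirt1-deleted samples 10 and 11 lay at -9.41 and -12.9, between the controls (22.0 to 46.1) and the other labelled Sirt1-deleted samples (-52.1 to -39.2). Of 10 T lineage markers, all above 0, 2 rose and 2 fell, with a summed value of 128748 to 142946 in controls and 148454 to 184230 in the labelled Sirt1-deleted samples. Of 12 neutrophil markers 11 rose, with a summed value of 9007 to 12453 in controls and 28521 to 97946 in the labelled Sirt1-deleted samples. Of 12 macrophage and monocyte markers 9 rose, with sums of 3056 to 3502 and 6437 to 11480. B cell, erythroid and NK cell lists gave no call among the 8, 8 and 2 genes tested, and of 7 stromal and endothelial genes tested 2 fell. The NK marker Ncr1 was not analysed here.

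Most HDAC genes differed little between the groups. Of the 10, 3 passed the test: Hdac2 rose by 18.5%, Hdac4 fell by 31.4% and Hdac11 fell by 27.5%. This is no larger a share than among all genes, of which 36.1% passed (16.8% as higher and 19.4% as lower). The median log2 difference was 0.00 over the 10 genes and 0.00 over all tested genes, and the median size of the difference was 0.10 against 0.23. Hdac2 and Hdac11 had no overlap between groups, where 24.0% of all tested genes had no overlap. In bulk samples, fewer cells of a type and less RNA per cell cannot be told apart. The part of the neutrophil and macrophage RNA in these 3 differences was not tested.

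**Figure D1:**
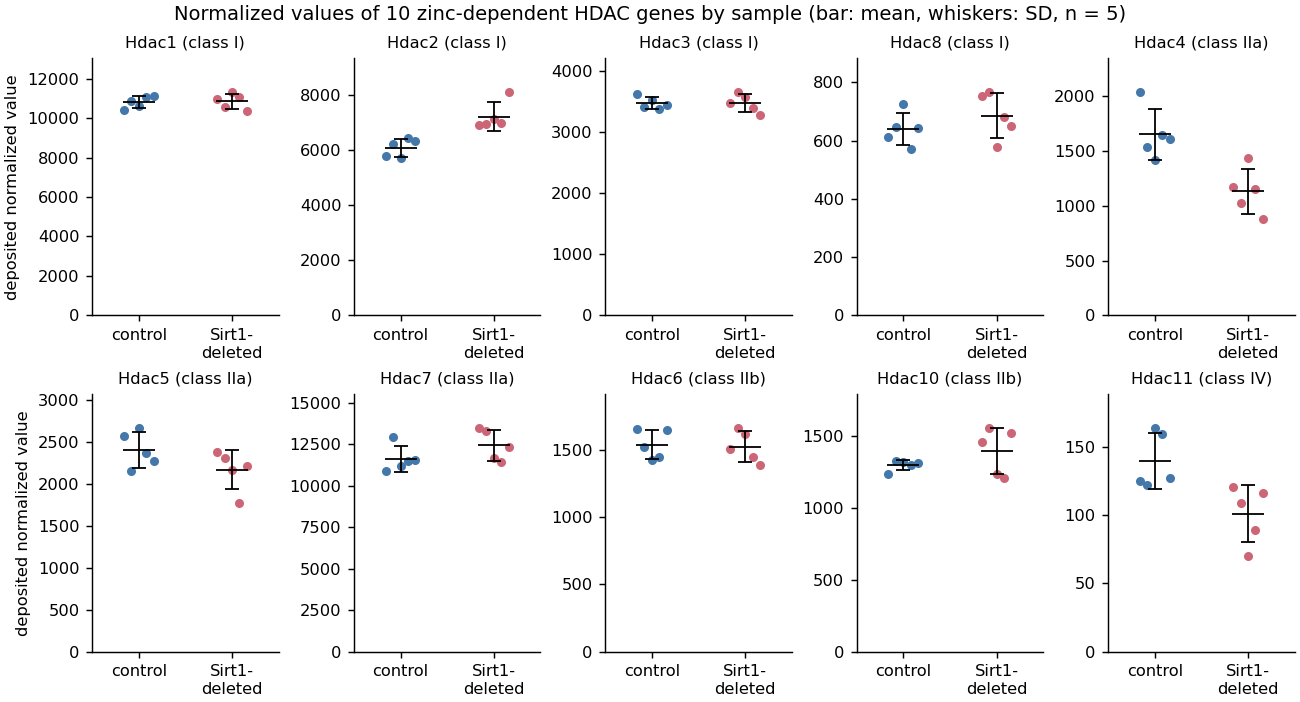
Normalized value (y axis from 0, deposited normalized units) of each HDAC gene in the 5 control and 5 labelled Sirt1-deleted samples, with points in title order, a bar at the mean and whiskers of 1 SD. All labelled Sirt1-deleted points lie above the controls for Hdac2 and below them for Hdac11, and 4 of 5 lie below them for Hdac4.

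**Figure D2:**
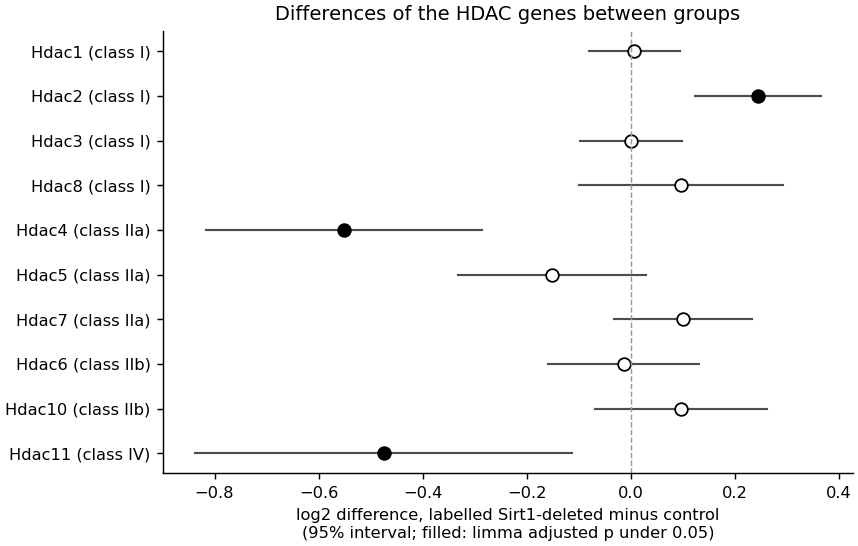
Log2 difference (x axis) of each HDAC gene, labelled Sirt1-deleted minus control, with its 95% interval. The intervals of Hdac2, Hdac4 and Hdac11 leave out 0, and the other 7 span it.

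Promoter sequence was available for 7 of the 10 genes, in 10 windows from RefSeq (GRCm38.p6), each from 250 bases before to 50 bases after an annotated start. The windows of the 3 genes that passed the test are printed 5′ to 3′ on the strand of the gene, since the differences turn on these genes. They are chr10:36974294-36974593 on the plus strand for Hdac2, chr1:92180292-92180591 on the minus strand for Hdac4 and chr6:91156565-91156864 on the plus strand for Hdac11. The Hdac4 and Hdac11 windows each lie at a start inside the annotated span of the gene. Capitals mark each match to the motifs described after them.
Hdac2: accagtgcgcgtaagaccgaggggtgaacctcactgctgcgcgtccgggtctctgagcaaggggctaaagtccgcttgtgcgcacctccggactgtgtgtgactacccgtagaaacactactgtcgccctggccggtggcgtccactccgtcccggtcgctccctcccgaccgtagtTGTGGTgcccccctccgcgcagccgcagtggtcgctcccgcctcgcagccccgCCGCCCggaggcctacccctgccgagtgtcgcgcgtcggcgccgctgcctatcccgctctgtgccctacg
Hdac4: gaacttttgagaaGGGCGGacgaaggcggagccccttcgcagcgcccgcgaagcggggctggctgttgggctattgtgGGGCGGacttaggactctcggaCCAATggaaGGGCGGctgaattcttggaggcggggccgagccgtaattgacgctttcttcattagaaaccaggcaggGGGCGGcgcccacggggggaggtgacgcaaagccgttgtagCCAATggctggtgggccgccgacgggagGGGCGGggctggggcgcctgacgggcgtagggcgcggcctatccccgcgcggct
Hdac11: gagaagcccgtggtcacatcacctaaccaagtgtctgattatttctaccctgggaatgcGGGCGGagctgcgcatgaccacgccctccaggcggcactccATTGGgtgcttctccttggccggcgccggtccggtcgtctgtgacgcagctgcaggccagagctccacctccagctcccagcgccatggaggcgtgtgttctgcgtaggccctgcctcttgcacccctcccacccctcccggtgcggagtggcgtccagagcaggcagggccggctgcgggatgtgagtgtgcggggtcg

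The motifs were searched on both strands. The GC box (GGGCGG), which zinc finger factors of the SP and KLF families bind, matched 5 times in the Hdac4 window and once each in those of Hdac2 and Hdac11. It occurred in 35.7% of 32851 RefSeq promoter windows of this length. The CCAAT box (CCAAT) matched 2 times for Hdac4 and once for Hdac11, and occurred in 37.4% of windows. The RUNX motif (TGTGGT) matched once for Hdac2 and occurred in 16.8% of windows. No match to an E-box (CACGTG, 7.15% of windows), a cyclic AMP response element (TGACGTCA, 1.79%), an ETS motif (CCGGAAG, 8.86%), an RBPJ motif (GTGGGAA, 6.38%), the MEF2 motif (3.19%, searched by its consensus) or an interferon response element (3.44%) lay in these 3 windows. The Hdac2 window held 36 CpG dinucleotides, the Hdac4 window 32 and the Hdac11 window 22, where the median over all windows was 7. High CpG content was common in the family, with a median of 21 over the 10 windows and a range from 5, at 1 of 4 Hdac7 starts, to 36. The MEF2 motif was the standard consensus. It replaced a looser pattern, with free letters in its middle, after matches had been seen, and the looser pattern had matched the Hdac2 window. A match is a description of letters, not a site. No measurement of these promoters was part of the data.

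The genes were expressed at very different levels. To compare genes, each value was divided by the length of the longest protein-coding transcript in the GENCODE M21 basic set. In controls Hdac1 had the highest level, at 5303 ± 140 normalized units per kb, followed by Hdac7 at 2751 ± 187, Hdac2 at 1876 ± 101 and Hdac3 at 1712 ± 49.0 (SD, n = 5 each). A middle group followed, with Hdac10 at 540 ± 15.4, Hdac5 at 495 ± 43.7, Hdac6 at 372 ± 25.5 and Hdac8 at 331 ± 29.0 units per kb (SD, n = 5 each). Hdac4 was at 204 ± 29.0 and Hdac11 lowest at 52.6 ± 7.68 units per kb (SD, n = 5 each). The control samples of neighbours in this order overlapped for Hdac2 and Hdac3, for Hdac10 and Hdac5, and for Hdac6 and Hdac8. The order of the means was the same in the labelled Sirt1-deleted samples, in which Hdac2 (2128 to 2501 units per kb) no longer overlapped Hdac3 (1614 to 1805). Dividing by the length of all exons together kept this order except that Hdac5 and Hdac6 changed places in the labelled Sirt1-deleted samples. The longest Hdac2 transcript, 1 of 2 in that set, has 3250 bases in 8 exons, and the nearness of Hdac2 and Hdac3 depends on the length used. With all exons together they were at 1362 ± 73.7 and 858 ± 24.6 units per kb in controls (SD, n = 5 each).

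**Figure D3:**
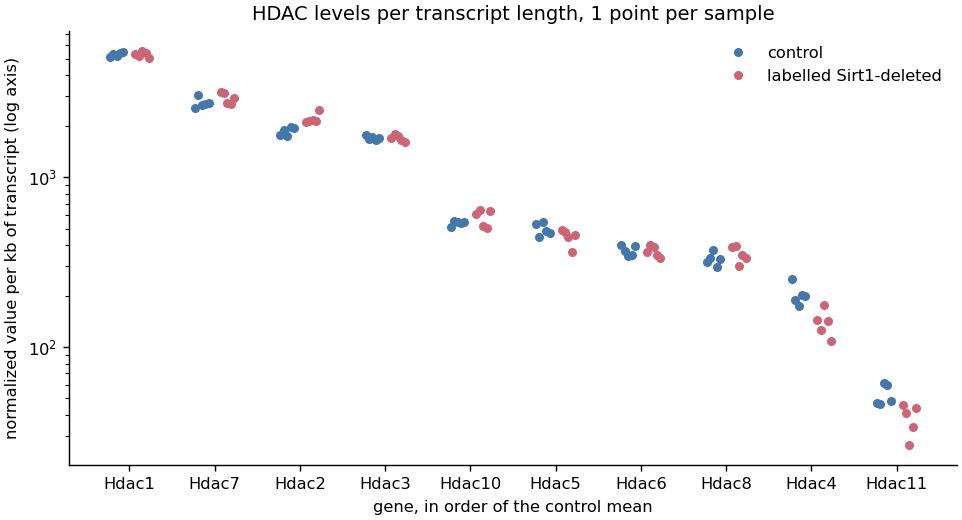
Normalized value per kb of transcript (log axis) for each HDAC gene in the order of the control mean, with 1 point per sample. Hdac1 lies highest and Hdac11 lowest in both groups, and the labelled Sirt1-deleted points of Hdac2, Hdac4 and Hdac11 are shifted against their controls.

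Among class I genes Hdac2 rose and its close relative Hdac1 did not pass the test. Hdac2 (ENSMUSG00000019777.16, chr10:36974544-37001889, plus strand) measured 6917, 6955, 7119, 6997 and 8128 normalized units in labelled Sirt1-deleted samples 7, 8, 10, 11 and 12. Controls 2, 3, 4, 5 and 6 measured 5776, 6212, 5714, 6431 and 6344. Every labelled Sirt1-deleted sample was above every control, 4 of them lay close together, and sample 12 was the highest. The log2 difference was 0.24 (SE 0.06, 95% interval 0.12 to 0.37; limma adjusted p = 0.00609; exact two-sided permutation p = 0.00794, the lowest value this test allows with 5 against 5 samples). Without sample 12 it was 0.20 (limma adjusted p = 0.00829), and the call held in all 11 other settings with every sample and in all 10 fits without 1 sample.

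Hdac1 (ENSMUSG00000028800.15, chr4:129516104-129542713, minus strand) measured 10943, 10581, 11336, 11057 and 10372 in labelled Sirt1-deleted samples 7, 8, 10, 11 and 12. Controls 2, 3, 4, 5 and 6 measured 10428, 10848, 10614, 11044 and 11102. The groups overlapped almost completely, and the 95% interval of the log2 difference was -0.08 to 0.09 (limma adjusted p = 0.921). A processed pseudogene similar to Hdac1, Gm10093, was listed at means of 10.5 ± 5.06 and 9.68 ± 4.66 (SD, n = 5 each), and reads shared between the copies could not be told apart.

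Hdac3, the catalytic subunit of the NCoR complex, measured 3279 to 3667 (median 3485) in the labelled Sirt1-deleted samples and 3376 to 3623 (median 3451) in controls. Its 95% interval was -0.10 to 0.10 on the log2 scale (limma adjusted p = 0.992). Hdac8, which deacetylates the cohesin subunit SMC3, measured 580 to 768 (median 680) against 573 to 726 (median 643). The log2 difference of Hdac8 was 0.10 (95% interval -0.10 to 0.29; limma adjusted p = 0.432). For both genes the groups overlapped.

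Class IIa held the largest fall of the family. Hdac4 (ENSMUSG00000026313.16, chr1:91928779-92195699, minus strand), known for binding MEF2 factors in muscle, bone and brain, measured 1171, 1026, 1435, 1154 and 884 in labelled Sirt1-deleted samples 7, 8, 10, 11 and 12. Controls 2, 3, 4, 5 and 6 measured 2044, 1543, 1420, 1649 and 1613. Samples 7, 8, 11 and 12 lay below every control, and sample 10 lay just above control 4, so the groups overlapped by this 1 pair. The log2 difference was -0.55 (SE 0.12, 95% interval -0.82 to -0.29; limma adjusted p = 0.00513; exact permutation p = 0.0159). It ranged from -0.64 to -0.47 when single samples were left out, with the call kept each time. The exact rank-sum test gave an adjusted p of 0.0512, and the adjusted p over the other alternatives was between 8.37e-04 and 0.0162. The annotation places 3 other loci of non-coding or unassigned type over Hdac4, 1 of them on the same strand, and none of these was in the table.

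Hdac5 measured 1775 to 2374 (median 2216) in the labelled Sirt1-deleted samples and 2149 to 2667 (median 2362) in controls. Its log2 difference was -0.15 (95% interval -0.33 to 0.03; limma adjusted p = 0.172). Hdac7 (ENSMUSG00000022475.19, chr15:97792664-97844502, minus strand), the class IIa enzyme that is abundant in thymocytes, was the highest of its class in these spleens. It measured 13504, 13325, 11667, 11459 and 12342 in labelled Sirt1-deleted samples 7, 8, 10, 11 and 12, and 10895, 12960, 11216, 11488 and 11568 in controls 2, 3, 4, 5 and 6. Samples 7 and 8 were above every control and the other 3 lay among them. The log2 difference of Hdac7 was 0.10 (SE 0.06, 95% interval -0.03 to 0.23; limma adjusted p = 0.221). It overlaps the gene Slc48a1 on the opposite strand, and whether strand was used in the quantification is not given in the sources used here.

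Hdac9, the remaining class IIa gene, is not among the 10 and was looked at after its values were seen. It measured 68.0, 71.9, 50.9, 87.9 and 80.1 in labelled Sirt1-deleted samples 7, 8, 10, 11 and 12, and 45.9, 52.0, 36.9, 31.4 and 45.6 in controls 2, 3, 4, 5 and 6. It rose at a low level (SE 0.20 around a log2 difference of 0.75; adjusted p = 0.0116 by limma), with 4 of 5 labelled Sirt1-deleted samples above every control. Its adjusted p was over 0.05 with quantile normalization (0.0652) and with the exact rank-sum test (0.0512).

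Neither class IIb gene passed the test. Hdac6, the tubulin and HSP90 deacetylase, measured 1389 to 1665 (median 1505) in the labelled Sirt1-deleted samples and 1428 to 1652 (median 1524) in controls, with a 95% interval of -0.16 to 0.13 (limma adjusted p = 0.893). Hdac10, which deacetylates polyamines, measured 1459, 1561, 1241, 1209 and 1524 in labelled Sirt1-deleted samples 7, 8, 10, 11 and 12. Controls 2, 3, 4, 5 and 6 measured 1239, 1331, 1322, 1301 and 1318. Samples 7, 8 and 12 were above every control, sample 11 was below every control and sample 10 lay within their range. Over all 5 the log2 difference of Hdac10 was 0.10 (SE 0.08; limma adjusted p = 0.346).

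Hdac11 (ENSMUSG00000034245.10, chr6:91156665-91174692, plus strand), of class IV, is known for removing long fatty acyl groups from lysine. It measured 121, 109, 70.3, 89.5 and 116 in labelled Sirt1-deleted samples 7, 8, 10, 11 and 12, and 125, 123, 164, 159 and 127 in controls 2, 3, 4, 5 and 6. The groups did not overlap, but sample 7 and control 3 were close, and samples 10 and 11 were the lowest. The log2 difference was -0.48 (SE 0.17, 95% interval -0.84 to -0.11; limma adjusted p = 0.0419; exact permutation p = 0.00794). The call was lost in 7 of the 10 fits that left out 1 sample and in 5 of the 11 other settings with every sample, with adjusted p from 0.0102 to 0.172 over all alternatives. The loss in single-sample fits came without labelled Sirt1-deleted sample 8, 10 or 11 and without control 2, 4, 5 or 6, where the limma adjusted p was between 0.0510 and 0.0969.

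Since labelled Sirt1-deleted samples 10 and 11 lay nearest the controls on the first principal component, the fit was repeated without both. This choice was made after the data were seen. Leaving out the samples nearest the controls favours larger differences, so a gene that passes only here gains no separate support. Then 4 of the 10 genes passed, where 45.6% of all genes did. Hdac2 (log2 difference 0.26) and Hdac4 (-0.68) passed again, Hdac10 (0.22, limma adjusted p = 0.00724) and Hdac7 (0.17, limma adjusted p = 0.0369) passed as higher, and Hdac11 did not pass (-0.26, limma adjusted p = 0.172). Hdac11 thus passed with samples 10 and 11 and not without them, and Hdac7 and Hdac10 the other way round.

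Ratios between relatives of a class were computed within each sample, where a common scaling factor cancels, for 5 pairs. The change in a log2 ratio is the log2 difference of the first gene minus that of the second. These tests thus reuse the values above and are not separate evidence. The log2 ratio of Hdac1 to Hdac2 was 0.66, 0.61, 0.67, 0.66 and 0.35 in labelled Sirt1-deleted samples 7, 8, 10, 11 and 12, and 0.85, 0.80, 0.89, 0.78 and 0.81 in controls 2, 3, 4, 5 and 6. The groups did not overlap, and the mean ratio was lower by 0.24 in the labelled Sirt1-deleted samples (exact two-sided permutation p = 0.00794, adjusted over the 5 pairs 0.0397). The log2 ratio of Hdac4 to Hdac7 was -3.47 ± 0.31 against -2.82 ± 0.25 (SD, n = 5 each), a difference of -0.65 (exact permutation p = 0.0159, adjusted p = 0.0397). This call was lost without control 2, 4, 5 or 6 (adjusted permutation p = 0.0595 in each). The ratios of Hdac4 to Hdac5 and of Hdac5 to Hdac7 differed by -0.40 and -0.25 and did not pass (exact permutation p = 0.0556 and adjusted p = 0.0694 for each). The ratio of Hdac6 to Hdac10 differed by -0.11 (exact permutation p = 0.333, adjusted p = 0.333).

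**Figure D4:**
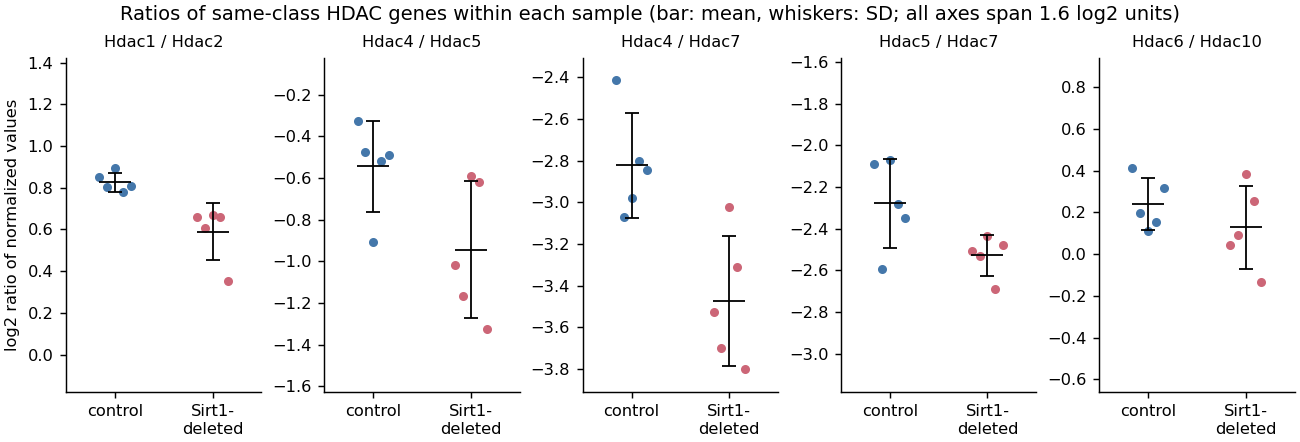
Log2 ratio of the normalized values of 2 same-class HDAC genes in each sample (y axis; each panel spans the same range), with the mean and SD of 5 samples per group. The groups are apart for Hdac1 / Hdac2 and overlap in the other 4 panels.

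With group means removed, the 10 genes varied in different directions among the samples. Over the 10 samples, Pearson's r was highest for Hdac3 and Hdac6 (0.76) and lowest for Hdac2 and Hdac3 (-0.78). These are descriptions over few samples, which differ in cell makeup (neutrophil marker sums of 28521 to 97946 within the labelled Sirt1-deleted group). The part of cell makeup in r was not tested. By the same measure, the tested genes most like Hdac2 were Lef1 (r = 0.94), Crim1 (0.94) and Hnrnpk (0.93), and those most like Hdac4 were Mob1b (0.99), Atl3 (0.97) and Haus6 (0.97). These were the highest of 15275 genes, and the gene ranked 100 still had r = 0.81 for Hdac2 and 0.90 for Hdac4. Labelled Sirt1-deleted sample 12 was the highest of all samples for Hdac2 (8128) and the lowest for Hdac3 (3279). No r was computed without this sample, so the values for Hdac2 may rest largely on it.

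Genes that work with the HDACs were examined in 11 lists of complex subunits, regulators and substrates. Of 95 listed genes 93 were tested, since Prkd1 fell below the filter and Trerf1 was not analysed here. The lists were chosen with earlier results of these data known. Of the tested genes 44 passed, or 47.3% beside 36.1% of all genes. With the filter raised to a mean of at least 50, 45 of the 93 passed, beside 43.6% of all genes. The share of all genes thus depended on the expression filter, and shares given for single lists below were not matched for expression level. Of the 44 genes that passed with the lower filter, 11 rose and 33 fell. The split depended on scaling: 25% of the calls were higher with the deposited scaling, 49.0% after upper-quartile rescaling (25 higher, 26 lower) and 43.5% after quantile normalization (20 higher, 26 lower). Over all tested genes the higher share of calls was 46.4%, 58.5% and 47.4% in the same order. The median log2 difference was -0.10 over these lists.

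**Figure D5:**
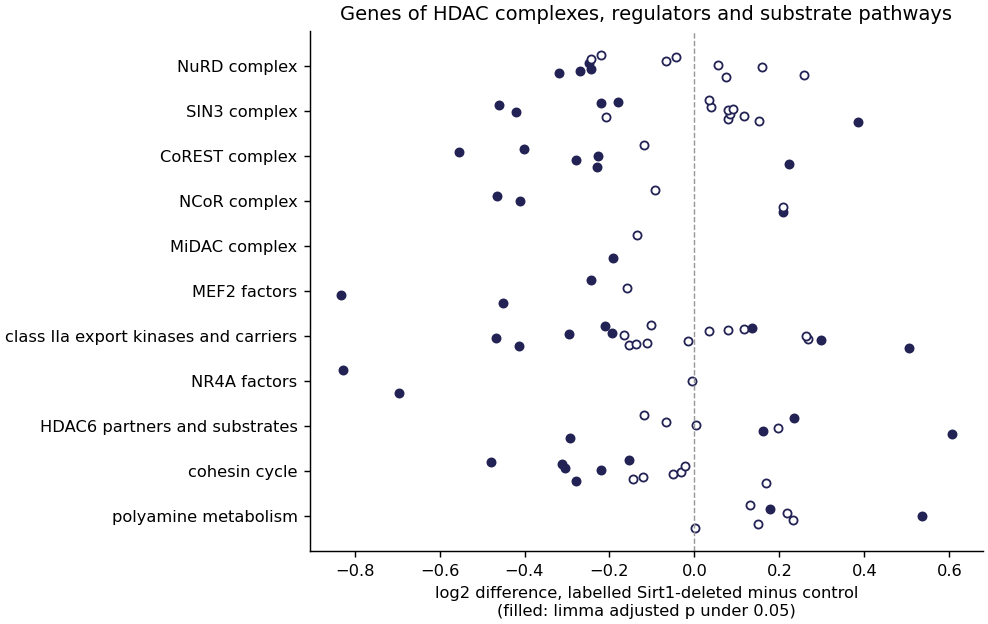
Log2 difference (x axis), labelled Sirt1-deleted minus control, of each tested gene in the 11 lists of HDAC-related genes, with filled points for limma adjusted p under 0.05. Filled points lie only below 0 for the MEF2, NR4A, MiDAC, NuRD and cohesin lists, of which NuRD and cohesin gain calls above 0 and MiDAC loses its call under the other scalings.

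In the complexes that carry HDAC1 and HDAC2, calls were mostly falls with the deposited scaling. Calls made up 85.7% of the CoREST list, 35.7% of the SIN3 list and 33.3% of the NuRD list, beside 36.1% of all genes. With this scaling the SIN3 and NuRD shares were thus no larger than that of all genes. After upper-quartile rescaling SIN3 was at 42.9% and NuRD at 66.7%, beside 35.5% of all genes. After quantile normalization they were at 42.9% and 58.3%, beside 34.1%. Of 7 CoREST genes 5 fell and 1 rose, and 4 fell and 1 rose under both other scalings. Rcor1, the scaffold of the complex, measured 2760, 3008, 3469, 3267 and 2162 in labelled Sirt1-deleted samples 7, 8, 10, 11 and 12 against 3903 to 4656 in controls (SE 0.11 around a log2 difference of -0.55; adjusted p = 0.00276 by limma). Kdm1a, the histone demethylase LSD1, fell from 3826 ± 106 to 3159 ± 228 (mean ± SD of 5; log2 difference -0.28; limma adjusted p = 0.00253). Hmg20b rose by 0.22 on the log2 scale (limma adjusted p = 0.0402), a call that 7 of the 10 single-sample omissions ended.

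Of 14 SIN3 complex genes 4 fell and 1 rose with the deposited scaling, and 3 fell and 3 rose under each of the others. The scaffold gene Sin3a fell from 3819 ± 345 to 2793 ± 411 (mean ± SD of 5; SE 0.10 around a log2 difference of -0.46; adjusted p = 0.00411 by limma), and Arid4a rose from 2025 ± 112 to 2666 ± 409 (SE 0.09 around a log2 difference of 0.38; adjusted p = 0.00707 by limma). Of 12 NuRD genes 4 fell and 0 rose with the deposited scaling, but 4 and 3 rose after upper-quartile and quantile scaling. Chd4, the remodelling ATPase of NuRD, measured 19016 to 23004 in the labelled Sirt1-deleted samples and 25039 to 29219 in controls (SE 0.06 around a log2 difference of -0.32; adjusted p = 0.00236 by limma). In the MiDAC list Dnttip1 fell (log2 difference -0.19, limma adjusted p = 0.0276), a call lost under both other scalings.

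Genes of the corepressor complex that binds HDAC3 did not move as one. Tbl1x fell from 6027 ± 312 to 4375 ± 414 (mean ± SD of 5; SE 0.07 around a log2 difference of -0.47; adjusted p = 6.19e-04 by limma), and Gps2 rose from 2099 ± 49.3 to 2425 ± 91.7 (SE 0.05 around a log2 difference of 0.21; adjusted p = 0.00465 by limma). Ncor1 had a log2 difference of 0.21 and did not pass (limma adjusted p = 0.0796). It passed as higher after upper-quartile rescaling (0.0481), with sample weights (0.0299), without labelled Sirt1-deleted sample 11 (0.0285) and without samples 10 and 11 together (0.0105), all limma adjusted p.

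Of the 4 MEF2 transcription factors, which class IIa enzymes bind, 3 fell (75.0% called, beside 36.1% of all genes). Mef2a, Mef2b and Mef2d fell under all 3 scalings, and the low-level Mef2c ranged from 48.1 to 69.3 against 53.0 to 74.9 (limma adjusted p = 0.492). Mef2b measured 351, 350, 630, 631 and 395 in labelled Sirt1-deleted samples 7, 8, 10, 11 and 12 and 679 to 912 in controls, with samples 10 and 11 closest to them (SE 0.18 around a log2 difference of -0.83; adjusted p = 0.0042 by limma). Mef2d measured 4849 to 5304 in the labelled Sirt1-deleted samples and 5807 to 6361 in controls (SE 0.05 around a log2 difference of -0.24; adjusted p = 0.00219 by limma). Nr4a1, the orphan nuclear receptor NUR77 that MEF2 factors activate after T cell receptor signals, measured 1479, 1472, 1668, 1478 and 1776 in labelled Sirt1-deleted samples 7, 8, 10, 11 and 12 and 2273 to 2929 in controls. The groups were far apart (SE 0.09 around a log2 difference of -0.70; adjusted p = 3.87e-04 by limma). Nr4a3 also fell at a low level (log2 difference -0.83, limma adjusted p = 0.0236), and Nr4a2 did not pass (-0.01, limma adjusted p = 0.984).

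Among 19 tested kinases, adaptors and the exporter that move class IIa enzymes, 5 fell and 3 rose with the deposited scaling. These calls were 42.1% of the list, beside 36.1% of all genes. After upper-quartile rescaling 4 fell and 6 rose, and after quantile normalization 4 fell and 4 rose. The protein kinase D gene Prkd3 fell from 2477 ± 162 to 1795 ± 166 (mean ± SD of 5; SE 0.07 around a log2 difference of -0.47; adjusted p = 8.15e-04 by limma), and Mark3 rose from 3327 ± 131 to 4099 ± 341 (SE 0.06 around a log2 difference of 0.30; adjusted p = 0.00289 by limma).

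Substrate pathways of the other enzymes were mixed. Of 8 HDAC6 partners and substrates 3 rose and 1 fell. The chaperone gene Hsp90aa1 measured 62579 to 77081 in the labelled Sirt1-deleted samples and 39276 to 53068 in controls (SE 0.09 around a log2 difference of 0.61; adjusted p = 6.42e-04 by limma). Cttn, which encodes cortactin, fell by 0.29 on the log2 scale (limma adjusted p = 0.0265), a call lost under both other scalings. Tubulin genes are near copies of each other, so their values are uncertain. Of 12 cohesin genes 6 fell and 0 rose with the deposited scaling, and 4 fell and 1 rose under each of the others. Stag2 fell from 10573 ± 528 to 7618 ± 897 (mean ± SD of 5; SE 0.07 around a log2 difference of -0.48; adjusted p = 8.19e-04 by limma), while Smc3, the HDAC8 substrate, had a difference of -0.02 (limma adjusted p = 0.776) that turned positive under both other scalings. Of 7 polyamine genes 2 rose with the deposited scaling and 4 under each of the others. The share called was 28.6% with the deposited scaling, below the 36.1% of all genes. It was 57.1% under each of the others, beside 35.5% and 34.1%. Sat1, the acetyltransferase that starts polyamine breakdown, measured 1441, 1461, 1085, 1547 and 1846 in labelled Sirt1-deleted samples 7, 8, 10, 11 and 12 against 892 to 1065 in controls (SE 0.11 around a log2 difference of 0.54; adjusted p = 0.00414 by limma). Odc1, the first enzyme of polyamine synthesis, had a difference of 0.15 that did not pass (limma adjusted p = 0.0888), but it passed as higher under both other scalings and without labelled Sirt1-deleted sample 8.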

How the data were processed

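RNA from 10 spleens was sequenced as strand-specific libraries, per the labels' protocols. Per the submitters' processing notes, the authors used kallisto 0.44.0, DESeq and genome build mm10, and the deposited values are a normalized signal, named as DESeq-normalized counts by the authors. Such values are not whole reads, so no count test was run, depth in reads is unknown and no counting interval is given. The table held 1 column per sample and 0 others. Samples were grouped by genotype label. log2(value + 1) of 15276 genes with a mean of at least 10 was tested with limma 3.58.1 in R 4.3.3 (group as the only term, intensity trend), with Benjamini-Hochberg adjustment over all of these genes at 0.05. The script was tested on simulated data. Single values and ratios were also compared by exact two-sided permutation over all assignments of the samples to 5 and 5.

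The members and lists were chosen with earlier results of these data known. Named genes were the members, the called gene with the largest rise and fall in each list (mean of at least 100), preset partners (Chd4, Sin3a, Rcor1, Kdm1a, Ncor1, Mef2d, Nr4a1, Smc3, Odc1, and 1 more that is not reported here), Sirt1, and the 3 genes most like the members with the highest and lowest difference. Coordinates and lengths are from GENCODE M21 (GRCm38). Alternatives were other pseudocounts, filters, scalings, limma settings, a rank-sum test, a stricter threshold and the omission of samples.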

Additional observations from a re-analysis of the deposited data

Results flagged for a closer look

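In 68 sets of 5 samples (each named gene in each group), the distance from the highest or lowest value to the next one was taken as a share of the whole spread. This share passed the critical value of 0.71 in 1 set, where chance at 5% gives 3.4. Hdac2 in labelled Sirt1-deleted sample 12 was 8128, against 6917 to 7119 in the other 4 (share 0.834). Without this sample Hdac2 still passed as higher.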

How the results depend on the processing

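No paired analysis was run. No title number occurs in both groups, and whether samples of the groups shared a leukemia is not given in the sources used here. Between 2 and 3 HDAC genes passed in the 11 alternatives with every sample, and 2 to 3 in the 10 fits without 1 sample. Of all tested genes 18.7% to 43.6% passed in these alternatives, and 27.5% to 41.1% in the fits without 1 sample. Partner genes that passed numbered 27 (5 higher, 22 lower) at an adjusted p under 0.01, where 18.7% of all genes passed. Without 1 sample 33 to 52 partner genes passed, where 27.5% to 41.1% of all genes did. The Hdac4/Hdac7 ratio lost its call under quantile normalization (-0.63, adjusted permutation p = 0.0595), and lay between -0.76 and -0.55 without 1 sample. The Hdac5/Hdac7 ratio ranged from -0.33 to -0.20 and passed only without control 3 (adjusted permutation p = 0.0198). Without 1 sample, the Hdac1/Hdac2 ratio ranged from -0.26 to -0.18 and passed each time, and the Hdac4/Hdac5 and Hdac6/Hdac10 ratios ranged from -0.49 to -0.30 and from -0.17 to -0.04 without passing. The omission of labelled Sirt1-deleted samples 10 and 11 together was chosen after seeing the data and favours larger differences. The Hdac4/Hdac5 ratio was then -0.63 and the Hdac6/Hdac10 ratio -0.24, and both passed (adjusted permutation p = 0.0298 and 0.0446). The cause of these changes was not tested. Signs changed for genes near 0 that passed in neither case. Hdac1 was -0.0044 with sample weights, -0.0235 without samples 10 and 11, and from -0.0093 to 0.0227 without 1 sample. Hdac3 was -0.0017 without samples 10 and 11 and from -0.0182 to 0.0221 without 1 sample. Hdac6 was 0.0460 after upper-quartile rescaling, 0.0432 after quantile normalization, 0.0131 with sample weights and from -0.0467 to 0.0186 without 1 sample. Smc3 was 0.0385 and 0.0286 under these 2 scalings.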
